A study of Mus musculus and Macaca mulatta with 39 samples.

Results

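A set of 4732 loci of the mouse genome was called for the histone mark H3K27ac in the developing cortex by E14.5 (E, embryonic day) but not at E11.5, and stayed called in both cortical areas sampled at E17.5. The loci were chosen from lists of called regions. Overlapping or touching regions of all 8 mouse H3K27ac lists were merged into 137962 loci, and a locus was retained when it was autosomal, called in neither E11.5 list, called in both E14.5 lists and called in all 4 E17.5 lists. Absence at E11.5 and presence afterwards are therefore properties of the selection, and are given as a description without a test. How much of each locus was covered at E17.5 relative to E14.5, where the loci lay relative to each other, and whether they carried a second mark, H3K4me2, were not used in the selection. A region of some length was, however, required in every E14.5 and E17.5 list.

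The lists come from chromatin immunoprecipitation and sequencing (ChIP-seq) of embryonic cortex of C57BL6J mice, with no genetic or drug treatment named in the labels. The groups were cortex at E11.5, cortex at E14.5, frontal cortex at E17.5 and occipital cortex at E17.5, each with 2 biological replicates per mark. Each replicate had an H3K27ac and an H3K4me2 precipitation that shared an input. The labels do not say whether a replicate was a single embryo or a pool. The tissue is a mixture of cells, so that fewer cells carrying a mark and less mark per cell cannot be told apart. The deposited lists hold region positions without any score or read count, so that read depth is unknown and the measured quantity is the length of sequence called, in bp. The H3K27ac lists covered 63.1 to 169 Mb and the H3K4me2 lists 65.3 to 162 Mb. Positions are on mm9, and no locus was assigned to a gene.

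H3K27ac is an acetylation of lysine 27 of histone H3 that marks active enhancers and promoters, and it is deposited by the acetyltransferases CBP and p300. H3K4me2 is a dimethylation of lysine 4 of the same histone, laid down by the MLL family of methyltransferases, and is found at enhancers and promoters both active and inactive. At E11.5 the mouse cortical wall consists mostly of dividing progenitors, at E14.5 neurons of the cortical plate are being produced, and at E17.5 many neurons have migrated and begun to extend axons.

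The boundary of the selection was set by single lists. A further 3722 loci met every criterion except that E11.5 replicate 1 had a region there, with a median of 900 bp covered in that list, and 1426 failed through E11.5 replicate 2 alone, with a median of 725 bp. On the later side 2664 loci were missed by E14.5 replicate 2 alone, 662 by E17.5 occipital replicate 2 and 639 by E14.5 replicate 1. Of the 4732 retained loci, 1252 (26.5%) had under 600 bp covered in their shortest later list, where the shortest regions in the lists were 405 to 500 bp wide. With the criteria applied to the remaining lists, 8462 loci qualified without E11.5 replicate 1 and 7419 without E14.5 replicate 2.

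Once called, the gained loci had on average more sequence under H3K27ac at E17.5 than at E14.5, although the lists of both stages overlapped. At E17.5 the median locus held 2112.5 ± 124 bp of H3K27ac in frontal and 1887.5 ± 407 bp in occipital cortex, against 1312.5 ± 477 bp at E14.5 (mean ± SD of the medians of 2 lists each). By list, the median was 2025 and 2200 bp in the frontal lists, 2175 and 1600 bp in the occipital lists, and 1650 and 975 bp at E14.5. Occipital replicate 2 was the shortest of the E17.5 lists and lay below E14.5 replicate 1. The lengths summed over the gained loci were 13.0 ± 0.770 Mb in frontal cortex and 11.5 ± 2.72 Mb in occipital cortex, against 8.14 ± 2.23 Mb at E14.5. Loci with at least 5 kb covered made up 11.7% ± 1.29 in frontal cortex and 8.51% ± 5.58 in occipital cortex, against 2.87% ± 2.27 at E14.5.

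The 22833 autosomal loci called in all 8 lists, which were acetylated throughout, gave closer values at both stages. Their median was 2400 bp in both frontal lists, 2425 and 2125 bp in the occipital lists, and 2575 and 2125 bp at E14.5. The gained loci thus reached 0.844 and 0.917 of the median of the constantly acetylated loci in the frontal lists and 0.897 and 0.753 of it in the occipital lists, against 0.641 and 0.459 in the E14.5 lists. Measured within a list in this way, all 4 E17.5 values lay above both E14.5 values. The 2441 loci first called at E17.5, in all 4 lists of that stage and no earlier one, had medians of 1050 and 1350 bp in the frontal and 1300 and 900 bp in the occipital lists. The gained loci, at the stage at which they were first called, had 1650 and 975 bp.

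**Figure D1:**
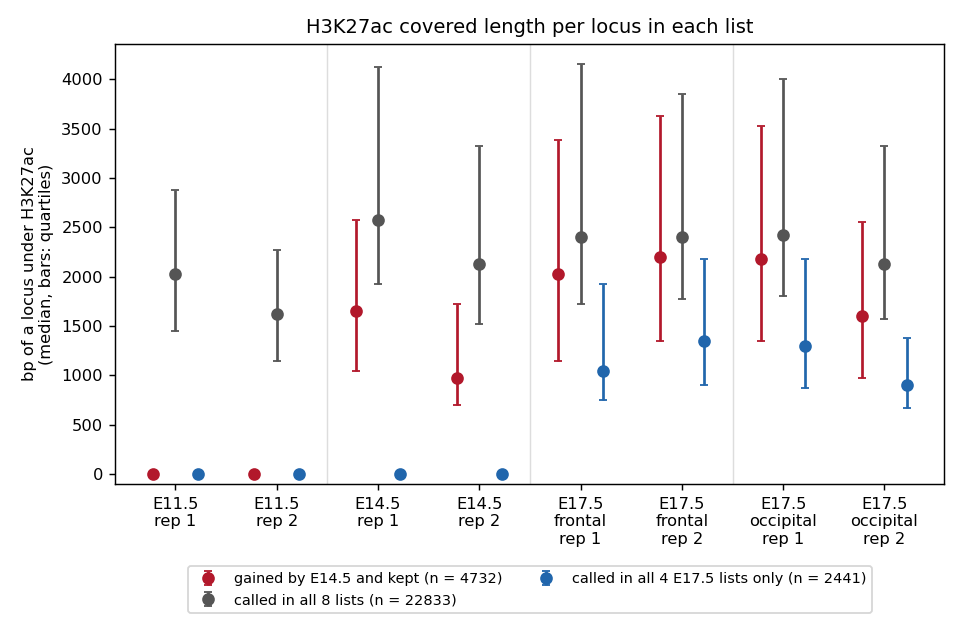
Length under H3K27ac per locus in each of the 8 lists (median with quartiles, in bp), for loci gained by E14.5 and kept, loci called in all 8 lists, and loci called in all 4 E17.5 lists only. Values of 0 at E11.5 (and at E14.5 for the last class) are set by the selection; the medians of the gained loci were 1600 to 2200 bp at E17.5 and 975 to 1650 bp at E14.5.

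At the level of single loci, 3694 of the 4732 (78.1%) had a larger mean covered length at E17.5 than at E14.5, with a median ratio of 1.41 (quartiles 1.04 and 2.04). The ratio was at least 2 at 1226 loci (25.9%) and at most 0.5 at 67 (1.42%). Of the constantly acetylated loci 48.5% were longer at E17.5, with a median ratio of 0.995. Against E14.5 replicate 1 alone, the longer of the E14.5 lists, the ratio was 1.20 and 64.9% of loci were longer, and against E14.5 replicate 2 alone it was 1.82 and 85.7%. With covered length scaled to the total of each list, on the log2(bp + 200) scale, 60.7% of the gained loci and 50.1% of all tested loci were longer at E17.5, compared with 77.4% and 62.5% without scaling.

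**Figure D2:**
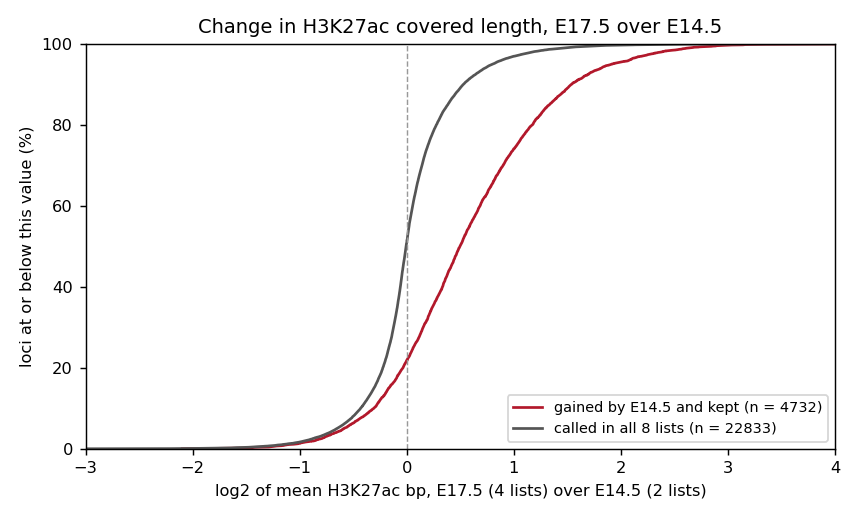
Cumulative share of loci (%) against the log2 ratio of mean H3K27ac length at E17.5 (4 lists) over E14.5 (2 lists), for the 4732 gained loci and the 22833 loci called in all 8 lists. The curve of the gained loci lies to the right, with 78.1% of them above 0, compared with 48.5% of the constantly called loci.

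No single gained locus passed the test of this change. Covered length was analysed as log2(bp + 200) with limma over the 6 lists of E14.5 and E17.5, and none of 80155 loci had a Benjamini-Hochberg adjusted p below 0.05 in either direction (0.0% of all tested loci higher and 0.0% lower). At an unadjusted p below 0.05 there were 981 gained loci (20.7%), against 14.6% of all tested loci. The median log2 change was 0.43 over the gained loci and 0.24 over all tested loci, a difference of 0.19. This difference depended on which loci were tested. With loci called in at least 1 list the median over all tested loci was 0.46, above that of the gained loci, and with at least 3 lists it was 0.17. Without E14.5 replicate 1 the medians were 0.68 over the gained and 0.63 over all tested loci, and without E14.5 replicate 2 they were 0.18 and 0.01. When the E11.5 lists were added to the fit, 60 gained loci were called higher and 0 lower, where 0.613% of all tested loci were called higher and 0.522% lower; the selection sets the E11.5 values of these loci to 0, which narrows their spread in that fit. The selection required a region in all 6 later lists, whereas a tested locus needed one in only 2. Of the 33428 loci called in all 6 later lists, gained loci included, 13.1% had every E17.5 value above both E14.5 values. A further 8.16% had every E17.5 value below both. All 4 E17.5 values lay above both E14.5 values at 1282 gained loci (27.1%), against 11.7% of all tested loci. All lay below both at 152 (3.21%), against 6.54%. The first of these counts was 2681 without E14.5 replicate 1 (56.7%, against 26.1% of all tested loci) and 1940 without E17.5 occipital replicate 2 (41.0%, against 21.0%).

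The following loci, among the largest differences in bp without overlap of the stages, were picked after their values were seen. A locus on chromosome 9 from 112624726 to 112642625 was covered at E17.5 over 15050 and 17775 bp in frontal and 17800 and 11500 bp in occipital cortex, against 750 and 1200 bp at E14.5. Every E17.5 list covered most of its 17900 bp, whereas the E14.5 lists held short patches (limma adjusted p = 0.0773). A locus on chromosome 1 from 43584751 to 43610225 was covered over 18750 and 23950 bp in frontal and 23975 and 1325 bp in occipital cortex, against 1175 and 1125 bp at E14.5. Occipital replicate 2 was hardly above the E14.5 lists, while the other late lists were far above them (limma adjusted p = 0.324). A locus on chromosome 5 from 45593451 to 45613450 showed the same split, with 12700 and 18175 bp in frontal and 19975 and 3125 bp in occipital cortex, against 500 and 1500 bp at E14.5 (limma adjusted p = 0.187).

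Fewer loci were shorter at E17.5, and the differences were smaller in bp. The largest of these without overlap, also picked after the values were seen, lay on chromosome 7 from 132451751 to 132457900, with 975 and 1525 bp in frontal and 2200 and 1000 bp in occipital cortex, against 5450 and 4850 bp at E14.5 (limma adjusted p = 0.135). On chromosome 16 from 36781801 to 36787425 the frontal lists covered 650 and 2650 bp and the occipital lists 2450 and 1275 bp, against 4800 and 4625 bp at E14.5 (limma adjusted p = 0.338). All 4 late values of both loci lay below both E14.5 values, with every list still above 0 by selection.

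Some gained loci were long from the start. Among the 5 longest at E14.5, judged by the shorter of both lists, was a locus on chromosome 12 from 51044376 to 51057175, with 10075 and 12650 bp in frontal and 12300 and 10900 bp in occipital cortex, against 11025 and 8250 bp at E14.5. Its values at both stages overlapped (limma adjusted p = 0.601). On chromosome 17 from 86741576 to 86756325 the late lists held 10325 to 12850 bp, against 8150 and 10800 bp at E14.5, and overlapped as well (limma adjusted p = 0.548).

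At most gained loci, and at most constantly acetylated ones, an outer boundary lay farther out at E17.5 than at E14.5. With both lists of a tissue combined, 89.6% of the bp called at E14.5 in the gained loci were still called in frontal cortex and 87.3% in occipital cortex. New sequence made up 39.3% of what was called in frontal cortex and 35.7% in occipital cortex, and at constantly acetylated loci 15.9% and 12.7%. In frontal cortex 2427 gained loci (51.3%) reached beyond the E14.5 boundary on both sides, 1640 (34.7%) on a single side and 665 (14.1%) on neither. In occipital cortex these numbers were 2155, 1753 and 824 (45.5%, 37.05% and 17.4%). At constantly acetylated loci the same shares were 27.65%, 41.5% and 30.8% in frontal and 20.9%, 38.95% and 40.1% in occipital cortex. The median edge lay 175 bp farther out in frontal and 125 bp in occipital cortex than at E14.5, and at constantly acetylated loci this distance was 0 and -25 bp.

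No difference between frontal and occipital cortex passed the test at these loci. The median ratio of frontal over occipital covered length was 1.10 at the gained loci and 1.04 at the constantly acetylated ones. No locus passed limma with Benjamini-Hochberg adjustment in either direction (0 of 80155, or 0.0% higher and 0.0% lower), and 127 gained loci (2.68%) had an unadjusted p below 0.05, against 5.26% of all tested loci. The median log2 change of the gained loci, frontal minus occipital, was 0.13, but it turned to -0.04 with covered length scaled to the total of each list and to -0.07 without occipital replicate 2.

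H3K4me2, which the selection did not use, was found at a minority of the gained loci at E11.5 and at most of them at E17.5. A region of at least 1 bp overlap was present at 12.5% and 30.5% of the 4732 loci in the lists of E11.5, at 27.6% and 51.7% in those of E14.5, at 64.2% and 56.2% in frontal cortex and at 71.3% and 88.4% in occipital cortex. All 4 E17.5 values lay above the 4 earlier ones, while the E11.5 and E14.5 values overlapped. The E11.5 and E14.5 replicates differed widely from each other, and in both tissues the higher share was in the longer H3K4me2 list, as it was in each E17.5 area. The part of list length in these shares was not tested.

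The constantly acetylated loci carried H3K4me2 at every stage, at 83.9% to 97.5% in the 8 lists. Loci first called for H3K27ac at E17.5 (below, first acetylated at E17.5) had lower shares than the gained loci. These were 2.99% and 9.96% at E11.5, 4.06% and 9.87% at E14.5, 34.5% and 25.2% in frontal and 37.9% and 66.0% in occipital cortex. In each of the 8 lists the gained loci thus stood between these classes. The loci first acetylated at E17.5 were also shorter, with a median span of 2100 bp, against 3250 bp in both other classes. Any overlap counts in these shares, and the part of span in them was not tested. Where a gained locus had H3K4me2, the median length under it was 925 and 1100 bp at E11.5, 912 and 1125 bp at E14.5, 1225 and 1150 bp in frontal and 1325 and 1650 bp in occipital cortex.

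**Figure D3:**
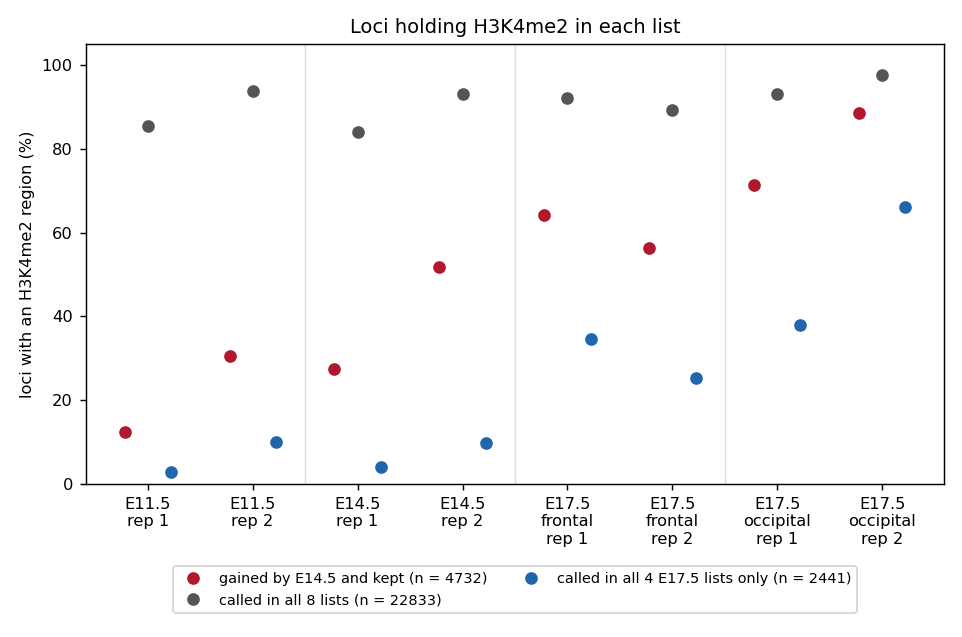
Share of loci (%) with an H3K4me2 region in each of the 8 H3K4me2 lists, for the gained loci, the loci called in all 8 H3K27ac lists and the loci first called at E17.5. The gained loci go through 12.5% to 30.5% at E11.5, 27.6% to 51.7% at E14.5 and 56.2% to 88.4% at E17.5, and lie between the other classes in every list.

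The order in which the marks were called varied among loci. H3K4me2 was called in both E11.5 lists, before H3K27ac was called, at 565 gained loci (11.9%), and 404 of these (71.5%) held it in all 8 lists. It was first called together with H3K27ac, in neither E11.5 list and both E14.5 lists, at 462 loci (9.76%). At 336 loci (7.10%) it was called in all 4 E17.5 lists and no earlier one, and at a further 1195 (25.3%) it was called in only 1 to 3 of the E17.5 lists. At 405 loci (8.56%) no H3K4me2 list had a region, and at the remaining 1769 (37.4%) only 1 of the lists of E11.5, or none of E11.5 and 1 of E14.5, had a region, so that the marks could not be ordered. A region missing from a list is not shown to lack the mark: the E14.5 H3K4me2 lists covered 65.3 and 95.2 Mb, compared with 90.0 to 162 Mb at E17.5, and the part of this difference in the order of calls was not tested.

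H3K27ac length in these groups of gained loci is given as a description and was not tested between them. The 336 loci with H3K4me2 called in all E17.5 lists and none before had a median mean length of 2662.5 bp at E17.5, against 1344 bp at E14.5, and a median ratio of 1.95. The 462 loci where both marks were first called at E14.5 had 2287.5 bp at E17.5, against 1825 bp at E14.5, with a ratio of 1.22. The 565 loci with H3K4me2 in both E11.5 lists had 1787.5 bp at E17.5, against 1350 bp at E14.5, with a ratio of 1.31. The 405 loci without H3K4me2 were the shortest of these, with 1500 bp at E17.5, against 962.5 bp at E14.5, and a ratio of 1.47.

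H3K4me2 rose at 678 gained loci from E14.5 to E17.5 and at 341 from E11.5 to E14.5. The length under H3K4me2 was analysed with limma over the 8 H3K4me2 lists at 51783 H3K27ac loci, and 907 of the 4732 gained loci were not tested because fewer than 2 lists had H3K4me2 there. Shares of gained loci called are over all 4732, untested ones included, whereas the shares beside them are over tested loci only. A locus with H3K4me2 at a single stage could pass this filter, so that the stage where it was high also admitted it to the test. The 678 loci that rose at the later step were 14.3% of all 4732, and 2 fell, at a Benjamini-Hochberg adjusted p below 0.05, where 9.62% of all tested loci rose and 0.241% fell. With H3K4me2 required in at least 3 lists, 386 gained loci rose (8.16%, against 4.93% of all tested loci), and E17.5 lists alone could still admit a locus. The 341 that rose at the earlier step were 7.21%, and 8 fell, where 2.22% rose and 1.32% fell. At an unadjusted p below 0.05 there were 1392 gained loci (29.4%) at the later step, against 20.0% of all tested loci, and 519 (10.97%) at the earlier step, against 7.78%. Over all tested loci the median log2 change at the later step was 0.28, and -0.12 with length scaled to the total of each list. With that scaling 661 gained loci (13.97%) rose and 2 fell at the later step, where 9.37% and 0.539% of all tested loci did.

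Both counts depended on single lists, and the share of all tested loci moved with them. Without E14.5 replicate 2 the later count was 1261 (26.6%, against 18.6% of all tested loci), and without E17.5 occipital replicate 2 it was 411 (8.69%, against 5.61%). The earlier count was 167 without E11.5 replicate 1 (3.53%, against 1.22%) and 710 without E14.5 replicate 1 (15.0%, against 4.98%). A fit of the 4 lists of E11.5 and E14.5 alone called none of 36602 loci at the earlier step with limma, so that the earlier calls rest on a spread shared with E17.5. In that fit 506 of the 1721 gained loci tested had an unadjusted p below 0.05, against 3551 of all 36602.

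Of the 6 largest gains of H3K4me2 between E11.5 and E14.5 past the threshold, 5 were at loci where neither E11.5 list had a region. A locus on chromosome 12 from 52216426 to 52224625 held 0 and 0 bp of H3K4me2 at E11.5, 2250 and 2600 bp at E14.5, 2350 and 2125 bp in frontal and 2600 and 2550 bp in occipital cortex (limma adjusted p = 0.00051 for E14.5 against E11.5). On chromosome 4 from 150550176 to 150555100 the lists held 0 and 0 bp at E11.5, 2449 and 2550 bp at E14.5, 2550 and 2375 bp in frontal and 2550 and 2975 bp in occipital cortex (limma adjusted p = 0.00051). In both cases the later lists gave lengths close to those of E14.5. The chromosome 16 locus with less H3K27ac at E17.5, from 36781801 to 36787425, held its H3K4me2, with 0 and 0 bp at E11.5, 2200 and 3000 bp at E14.5, 2800 and 2500 bp in frontal and 3075 and 2900 bp in occipital cortex (limma adjusted p = 0.000863). All 3 calls were lost in the fit of E11.5 and E14.5 alone (limma adjusted p = 0.0741), and held in the other 15 alternatives run for each.

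A locus on chromosome 11 from 78134526 to 78139325 had H3K4me2 from the start and more of it later, with 875 and 1450 bp at E11.5, 3849 and 3575 bp at E14.5, 3550 and 3475 bp in frontal and 3425 and 3825 bp in occipital cortex. Its log2 change from E11.5 to E14.5 was 1.55 (limma adjusted p = 0.0308), but the call was lost in 8 of 16 alternatives (adjusted p of 0.00539 to 0.22 over all 16), among them the replicate number as a block (0.0704) and the fits without any single E14.5 or E17.5 list. Of the 8 loci where H3K4me2 fell at this step, that on chromosome 13 from 110883126 to 110886275 held 775 and 1625 bp at E11.5, 0 bp in both lists at E14.5, 1250 and 1925 bp in frontal and 1800 and 2825 bp in occipital cortex (limma adjusted p = 0.0401). That call was lost in 10 of 16 alternatives, including every fit that left out a list (limma adjusted p of 0.0118 to 0.237 over all 16). There no H3K4me2 was listed at the stage at which H3K27ac was first called, with 2075 and 575 bp of it.

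The largest gains of H3K4me2 between E14.5 and E17.5 included the following 3 loci, each over 10 kb long. On chromosome 10 from 13907226 to 13920600 H3K4me2 covered 2575 and 3575 bp in frontal and 3650 and 8275 bp in occipital cortex, against 0 bp in both E14.5 lists (limma adjusted p = 0.00218). H3K27ac was called there before it, with 9850 and 11300 bp in frontal and 12975 and 8975 bp in occipital cortex, against 7225 and 2275 bp at E14.5. The others were neighbours on chromosome 17. That from 86761452 to 86771575 held 2050 and 2025 bp of H3K4me2 in frontal and 5075 and 6825 bp in occipital cortex, against 0 bp in both E14.5 lists (limma adjusted p = 0.000981). The call held in 15 of 16 alternatives and was lost with equally many of the widest regions per list (limma adjusted p = 0.213, with 0.00104 as the lowest). Its neighbour from 86741576 to 86756325 held 2475 and 2950 bp in frontal and 7275 and 9875 bp in occipital cortex, against 500 and 1525 bp at E14.5 (limma adjusted p = 0.0345). This call was lost in 8 of 16 alternatives, among them those without any single E11.5 or E17.5 list (limma adjusted p of 0.00606 to 0.17 over all 16). In both the occipital values exceeded the frontal ones, as did the shares over all gained loci. The 2 loci where H3K4me2 fell were split by area. On chromosome 19 from 16083576 to 16085775 the frontal lists held 0 and 0 bp and the occipital lists 825 and 750 bp, against 775 and 650 bp at E14.5 (limma adjusted p = 0.011). On chromosome 3 from 153775976 to 153779875 the frontal lists held 0 and 0 bp and the occipital lists 650 and 950 bp, against 625 and 775 bp at E14.5 (limma adjusted p = 0.0354). The second of these calls was lost in 12 of 15 alternatives (limma adjusted p of 0.0155 to 0.108), among them the replicate number as a block (0.0637), and the first in 0 of 15. The occipital values of both loci overlapped those of E14.5, while the frontal lists had none.

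The loci with the longest H3K27ac and H3K4me2 in all 8 lists were led by one on chromosome 1 from 55939702 to 55961375. Its H3K4me2 covered 1500 and 6175 bp at E11.5, 850 and 3550 bp at E14.5, 8575 and 5250 bp in frontal and 5125 and 6300 bp in occipital cortex. Its H3K27ac covered 13775 and 20450 bp in frontal and 20825 and 6000 bp in occipital cortex, against 6250 and 3950 bp at E14.5. At the other end, a locus on chromosome 9 from 113092201 to 113109500 had no H3K4me2 in any list although H3K27ac covered 11800 and 15450 bp in frontal and 16875 and 8025 bp in occipital cortex, against 5225 and 3725 bp at E14.5. The next of these without H3K4me2, on chromosome 2 from 178876426 to 178884775, was shorter, with 8125 and 2925 bp of H3K27ac in frontal and 5650 and 1650 bp in occipital cortex, against 4050 and 4250 bp at E14.5. Its stages overlapped.

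Inside the gained loci H3K4me2 lay mostly on the sequence already called for H3K27ac at E14.5. The loci were divided into the 11.1 Mb called in either E14.5 list and the 7.56 Mb added by E17.5, called in any of the 4 E17.5 lists. The added part thus drew on more lists than the earlier part, and a call in 1 of them was enough. Of the added part H3K4me2 covered 0.918% and 3.24% at E11.5, 1.32% and 3.60% at E14.5, 8.20% and 6.31% in frontal and 9.88% and 22.2% in occipital cortex. Of the part called at E14.5 it covered 5.04% and 13.8% at E11.5, 11.3% and 25.7% at E14.5, 32.9% and 27.2% in frontal and 39.4% and 59.3% in occipital cortex. The part called at E14.5 was the more densely marked in all 8 lists, including those of E11.5, when H3K27ac was called in neither part.

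**Figure D4:**
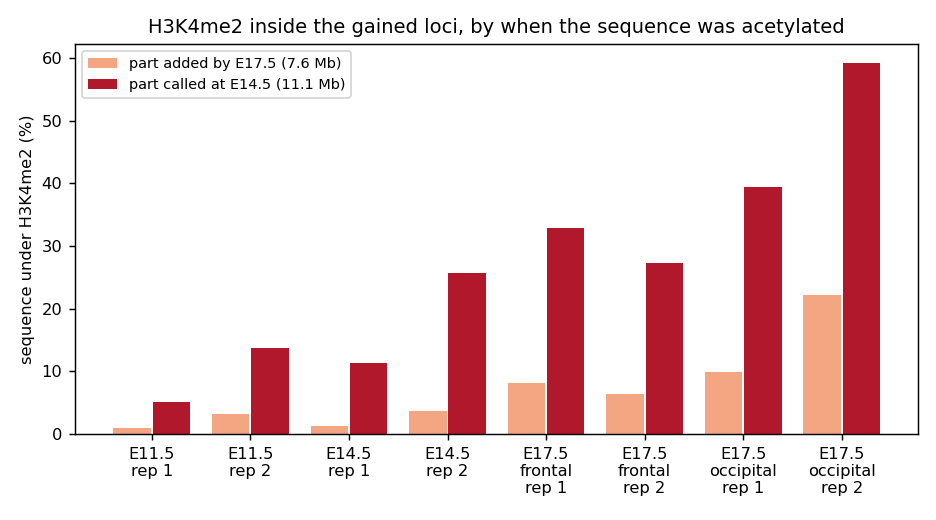
Share of sequence (%) under H3K4me2 in each of the 8 H3K4me2 lists, for the part of the gained loci added by E17.5 (7.56 Mb) and the part already called at E14.5 (11.1 Mb). The bar of the part called at E14.5 is the taller in all 8 lists.

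The gained loci were spread over all autosomes and also lay next to each other. They made up 4.69 (chromosome 14) to 6.99 (chromosome 5) of every 100 loci called in at least 2 lists, and 5.70 over all autosomes. Of the 4732 loci, 1977 (41.8%) had another gained locus within 50 kb, and 24.1% had one within 20 kb. Of loci first acetylated at E17.5, which are fewer, 27.5% had one of their own class within 50 kb, and of the more numerous constantly acetylated loci 79.1%. These shares rise with the number of loci in a class. Among immediate neighbours on the chromosome, counted over loci called in at least 2 lists, 9.003% of the neighbours of a gained locus were gained loci, where 5.70% of all loci were. Constantly acetylated loci made up 21.7% of the neighbours of gained loci, where they were 27.5% of all loci, and loci first acetylated at E17.5 made up 3.64%, where they were 2.94%. The other classes also lay next to their own kind: 6.597% of the neighbours of loci first acetylated at E17.5 were of that class, where 2.94% of all loci were, and 38.6% of the neighbours of constantly acetylated loci were constantly acetylated, where 27.5% were. Regions parted by a short gap count here as separate neighbouring loci. With regions up to 1000 bp apart merged there were 4560 gained loci, and the neighbour shares and linked groups were not recomputed for them.

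The nearest constantly acetylated locus lay at a median of 25200 bp from a gained locus and at a median of 39725 bp from a locus first acetylated at E17.5. It was within 10 kb for 1359 gained loci (28.7%) and beyond 100 kb for 737 (15.6%). For loci first acetylated at E17.5 these shares were 19.5% and 24.8%.

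Linking gained loci with gaps of up to 50 kb gave 787 groups of at least 2 loci, of which 34 held at least 5, with 191 loci among them. The largest, on chromosome 13 from 70212501 to 70452750, held 12 gained loci within 240250 bp. H3K27ac summed over them came to 55425 and 57800 bp in frontal and 55475 and 40800 bp in occipital cortex, against 36775 and 30525 bp at E14.5. H3K4me2 summed over them came to 8725 and 8125 bp in frontal and 14050 and 22925 bp in occipital cortex, against 550 and 5350 bp at E14.5 and 1475 and 4425 bp at E11.5. Both marks thus covered more in every E17.5 list than in any earlier one. Within the same stretch lay 14 other loci called in at least 2 lists, of which 2 were constantly acetylated and 1 was first acetylated at E17.5.

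The second group, on chromosome 9 from 113092201 to 113285701, held 8 gained loci in 193501 bp, with no constantly acetylated locus between them. The stretch also held 9 other loci called in at least 2 lists, of which 2 were first acetylated at E17.5. H3K27ac covered 91700 and 90200 bp in frontal and 99700 and 61175 bp in occipital cortex, against 33000 and 20825 bp at E14.5. H3K4me2 was listed at 0 bp in all 4 lists of E11.5 and E14.5, and covered 1550 and 1025 bp in frontal and 1600 and 6300 bp in occipital cortex. Acetylation was thus broad there while H3K4me2 covered short patches. At 7 of its 8 loci every E17.5 list covered more than both E14.5 lists. The exception spanned 113165227 to 113167475, with 1600 and 900 bp in frontal and 1925 and 875 bp in occipital cortex, against 750 and 1275 bp at E14.5.

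**Figure D5:**
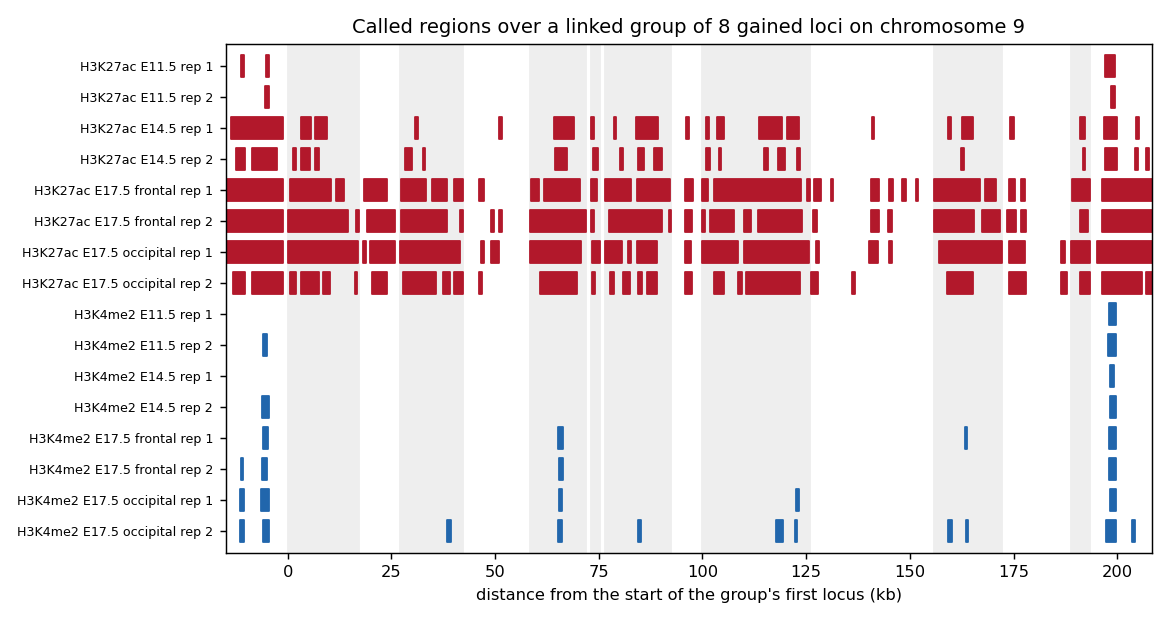
Regions called in the 8 H3K27ac lists and the 8 H3K4me2 lists over the group of 8 gained loci on chromosome 9, by distance in kb from the start of the first locus; grey bands are the gained loci. H3K27ac is absent within the bands at E11.5, present in short regions at E14.5 (33000 and 20825 bp in all) and broad at E17.5, while H3K4me2 appears in the bands in short regions at E17.5 only.

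The other groups of 7 loci each did not all behave alike. On chromosome 10 from 94438801 to 94582975 H3K27ac covered 21700 and 29925 bp in frontal and 27150 and 30650 bp in occipital cortex, against 16825 and 13000 bp at E14.5. On chromosome 13 from 29516076 to 29683625 it covered 44150 and 43300 bp in frontal and 38950 and 24825 bp in occipital cortex, against 29075 and 20600 bp at E14.5, so that occipital replicate 2 lay between the E14.5 values. Also on chromosome 13, from 25974201 to 26174600, it covered 18575 and 26675 bp in frontal and 27925 and 8675 bp in occipital cortex, against 20225 and 10500 bp at E14.5, and the stages overlapped. These summed values are descriptions of the groups and were not tested.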

How the data were processed

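Per the labels, H3K27ac and H3K4me2 were precipitated from crosslinked, sonicated chromatin of mouse embryonic cortex. The authors deposited 1 list of region positions per sample, and these positions are the only values (16 mouse lists used; rhesus lists and inputs not used here). The submitters' processing notes name Bowtie 0.12.9 and the builds hg19 and mm9 without a role. No source used here names the region caller or its threshold. The lists reach 197068850 on chromosome 1 and were taken as mm9. Positions are written 1-based.

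Loci were merged from all H3K27ac regions. A late region that touches an E11.5 region joins that locus, so gains of this kind are outside the selection. Each locus was measured per list as bp covered, and tested as log2(bp + 200) with limma 3.58.1 (trend) in R 4.3.3, with a mean per tissue, E17.5 as the mean of both areas, loci covered in at least 2 lists, and Benjamini-Hochberg adjustment over all loci tested. The code was tested on simulated data. Summaries used Python 3.11.15, numpy 2.4.6, pandas 2.3.3 and matplotlib 3.10.9.

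The loci and tests were chosen with earlier results of these data known. Named loci follow a fixed rule: the largest changes past the adjusted threshold per comparison, the longest at E14.5, the longest with H3K4me2 in all lists or none, and the 5 largest linked groups. It found none for H3K27ac, and loci picked after their values were seen are marked so. P-values measure the spread of called length between biological replicates. A pair of lists that both hold 0 bp has no spread, which narrows the spread of its locus in the fit. Alternatives were another pseudocount, scaling, the replicate number as a block, other filters and merging, equal numbers of regions, and each list left out. Depth is unknown, so no counting interval was computed.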

Additional observations from a re-analysis of the deposited data

How the results depend on the processing

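The number of gained loci was 2256 when each list kept equally many of its widest regions and 5012 to 8462 with 1 list left out. For H3K27ac at E17.5 against E14.5, where limma called 0 gained loci, 7 were higher with loci called in at least 3 lists (0.148%, against 0.104% of all tested loci), 139 higher and 42 lower with the widest regions (2.94% and 0.888%, against 2.10% and 2.72%), and 60 higher with all 8 lists fitted (1.27%, against 0.613%). That fit called 2 higher and 1 lower for frontal against occipital cortex (0.0423% and 0.0211%, against 1.59% and 0.721%). Leaving out single lists gave 0 calls in all these cases. For H3K4me2 at E14.5 against E11.5 the counts were 171 higher and 3 lower with a pseudocount of 1000 bp, 19 lower with the widest regions, 0 and 0 with the compared tissues alone, and 167 to 710 higher and 5 to 48 lower with 1 list left out. For H3K4me2 at E17.5 against E14.5 they were 386 higher with at least 3 lists, 435 higher and 35 lower with the widest regions, and 411 to 1261 higher and 1 to 24 lower with 1 list left out. At the earlier step the 1000 bp pseudocount gave 3.61% of gained loci higher and 0.0634% lower, against 1.18% and 0.894% of all tested loci. The widest regions gave 6.78% and 0.40%, against 3.535% and 3.24%. At the later step 8.16% were higher with at least 3 lists, against 4.93% of all tested loci. With the widest regions 9.19% were higher and 0.74% lower, against 6.42% and 2.41%. For the range ends of higher calls with 1 list left out, all-loci shares are given above. Lower calls at the later step numbered 1 with a pseudocount of 1000 bp, with at least 3 lists or 1 list, and with the compared tissues alone. That was 0.0211% in each case, against 0.151% to 0.311% of all tested loci. With the replicate number as a block, 255 were higher and 5 lower at the earlier step (5.39% and 0.106%, against 1.605% and 1.06% of all tested loci). At the later step 581 were higher and 1 lower (12.3% and 0.0211%, against 8.56% and 0.199%). The labels do not say whether replicate numbers mark shared embryos, in the 2 areas of E17.5 or elsewhere: same-numbered deviations correlated at -0.103 to 0.288 across stages, and between the areas at -0.208 for H3K27ac and -0.0769 for H3K4me2.

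Leaving out 1 list, an alternative chosen after seeing the data, moved the median ratio of H3K27ac length between 1.20 and 1.82 and the share of longer loci between 64.9% and 85.7%. The loci higher at E17.5 without overlap moved between 1366 (28.9%, against 13.7% of all tested loci) and 2681 (56.7%, against 26.1%). H3K4me2 over at least 50% of a locus was found at 7.37%, 11.7%, 18.3% and 38.9% of gained loci at E11.5, at E14.5, in frontal and in occipital cortex. The share with another gained locus nearby was 24.1% within 20 kb and 58.4% within 100 kb, and 9.003% among immediate neighbours. Of the named H3K4me2 changes under the alternatives, 189 values stayed past the threshold, 79 did not and 0 changed sign. Read depth is unknown, and its part in these calls was not tested.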
